A study of Mus musculus with 10 samples.

Results

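The transcripts described here encode 10 tubulins and microtubule proteins of neurons: the α-tubulin Tuba1a, the β-tubulins Tubb2a, Tubb2b, Tubb3 and Tubb5, the microtubule-associated proteins Map2, Mapt and Map1b, and the stathmins Stmn1 and Stmn2. They were chosen by name and function and not by a measured value, although earlier results of these data were known. They matched 10 of the 43629 gene identifiers in the count files, all 10 among the 17039 genes with enough counts to be tested. RNA of the dorsal telencephalon of C57BL/6 mouse embryos at E14.5 was sequenced in 5 control samples (without Cre; Dot1l-cKO f/+) and 5 samples labelled Dot1l-cKO (with 1 Cre allele; Dot1l-cKO f/f), which the study describes as littermates. DOT1L is the methyltransferase of histone H3 lysine 79, and Cre was expressed in cells of the telencephalon. The Cre allele was present in the Dot1l-cKO group and absent from the controls, which carried 1 floxed Dot1l allele, so the presence of Cre and the Dot1l deletion cannot be told apart. The labels call the samples biological replicates without giving the number of embryos in each.

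Microtubules are hollow polymers of α- and β-tubulin dimers. Newborn neurons assemble them into the cage around the nucleus that serves migration and into the bundles that carry transport along axons and dendrites. Each tubulin is encoded by several genes whose products, the isotypes, differ mainly at the acidic carboxyl terminus that projects from the polymer and is bound and modified by other proteins. Structural microtubule-associated proteins stabilize or space the polymer, and stathmins bind free tubulin dimers and promote disassembly. Several of these genes, TUBB3 and MAP2 in particular, are standard labels of neurons, and mutations of TUBA1A, TUBB2B, TUBB3 and TUBB, the human counterpart of Tubb5, cause cortical malformations in humans.

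The β-tubulin coding sequences are shown where they separate the isotypes and where they do not. A read from a stretch that genes share cannot be assigned to a single gene by its own sequence alone. The last 90 coding bases, including the stop codon, are given in the order of the transcript. Each stretch was aligned to the last 90 coding bases of Tubb2b alone. Capitals mark bases that differ from, or have no counterpart in, that stretch, also where the counterpart in Tubb2b may lie just before it. The sequences are from the GENCODE M21 annotation on GRCm38, each from the last coding exon. They lie at chr13:34127471-34127560 on the minus strand for Tubb2b, chr13:34074468-34074557 on the minus strand for Tubb2a, chr8:123421593-123421682 on the plus strand for Tubb3 and chr17:35834982-35835071 on the minus strand for Tubb5.
Tubb2b: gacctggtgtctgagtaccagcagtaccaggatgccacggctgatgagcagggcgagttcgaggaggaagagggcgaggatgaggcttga
Tubb2a: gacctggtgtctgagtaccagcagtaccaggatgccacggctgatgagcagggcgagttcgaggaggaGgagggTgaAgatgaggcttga
Tubb3: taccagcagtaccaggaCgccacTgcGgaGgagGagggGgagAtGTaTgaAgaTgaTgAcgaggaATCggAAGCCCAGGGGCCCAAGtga
Tubb5: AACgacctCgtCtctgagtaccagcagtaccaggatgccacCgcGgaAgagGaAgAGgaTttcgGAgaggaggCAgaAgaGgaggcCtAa

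Counted by these capitals, Tubb2a departed from this stretch of Tubb2b at 3 of the 90 bases, Tubb5 at 21 and Tubb3 at 34. Over the whole coding sequence Tubb2a and Tubb2b were 96.5% identical, with an identical run of 551 bases, whereas the other pairs among the 4 β-tubulins were 82.3% to 84.6% identical. For each gene the transcript with the longest coding part was searched. Of all 50-base words in the Tubb2a transcript, 49.6% also occurred in transcripts of other genes and 45.6% in those of Tubb2b, and for Tubb2b the shared part was 39.3%. For Tuba1a it was 75.5%, with 46.9% of the words found in Tuba1c and 43.4% in Tuba1b. For Stmn1 it was 36.5%, with 34.7% of the words found in the gene model Gm11223. The counts of Tuba1a, Tubb2a, Tubb2b and Stmn1 therefore depended on how reads that match several genes were treated and are uncertain to that extent. The searched transcripts of Tubb3, Mapt, Map1b and Stmn2 shared no 50-base word with another gene, that of Tubb5 shared 0.115% and that of Map2 0.274%. The search covered 2250 bases of Mapt, 2073 of Stmn2, 6258 of Map2, 11808 of Map1b and 2649 of Tubb5. All annotated exons of these genes span 7.53, 5.60, 16.4, 15.8 and 3.33 kb in the same order, and the rest was not searched.

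The libraries held 54202349 to 66556034 gene counts. The lowest count of any of the 10 transcripts in any sample was 13250, which gives a counting error of at most 0.869%, so the spread between samples and not depth set the precision. Levels are given as counts per 1000000 (CPM) after scaling of the libraries by the trimmed mean of M-values. The control level of Dot1l itself was 37.3 ± 4.04 CPM and the Dot1l-cKO level was 39.4 ± 11.7 CPM, both SD over 5 samples, with a log2 difference of 0.08 (adjusted p = 0.864, edgeR quasi-likelihood test). These counts cover the whole gene and do not resolve the floxed part, so they do not check the genotype, and Dot1l-cKO is used throughout as the label of the samples. Dot1l-cKO replicate 2 had 20 CPM of Dot1l and the other 4 had 40 to 52 CPM.

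A number of unstated meaning opens each column name of the deposited normalised values. This header number was 57 in replicates 2 and 3 of both groups. These 4 samples held 0.0471% to 0.492% mitochondrial ribosomal RNA, and the other 6 held 5.79% to 10.9%. Because the header number may mark a technical batch, the genotype difference is also given within each of these sets.

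Together the 10 transcripts held 1.75% ± 0.185 of all gene counts in the controls (SD, n = 5, range 1.52% to 1.99%) and 1.74% ± 0.0989 in Dot1l-cKO (n = 5, range 1.63% to 1.88%). The range of the Dot1l-cKO samples lay inside that of the controls. Per length, as CPM per kilobase of all annotated exons of the gene, the control levels spanned a 44.7-fold range. Tuba1a was highest (2344 ± 348 CPM per kb), followed by Tubb5 (1160 ± 76.2), Stmn1 (923 ± 128), Tubb3 (831 ± 145) and Tubb2b (602 ± 60.6), all SD with n = 5. A gap separated these from Map1b (173 ± 32.1 CPM per kb), Tubb2a (161 ± 28.5), Map2 (77.2 ± 12.2), Mapt (62.5 ± 16.7) and Stmn2 (52.5 ± 9.01).

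Among neighbours in this order, the control values did not overlap between Tuba1a and Tubb5, between Tubb2b and Map1b, or between Tubb2a and Map2. The other neighbours overlapped over the samples, although Stmn1 exceeded Tubb3 in 4 of 5 controls and each of the remaining neighbours kept its order in 5 of 5. In Dot1l-cKO 6 of the 10 transcripts held the same rank as in the controls. Tubb2a and Map1b were among those that did not, with 209 ± 17.0 and 142 ± 38.9 CPM per kb in Dot1l-cKO (SD, n = 5). With the length of the longest annotated transcript in place of all exons, the range was 27.2-fold, Stmn1 moved to the second place and Map2 to the seventh. The levels of Tuba1a, Tubb2a, Tubb2b and Stmn1, and so their places, also depend on how reads that match several genes were treated.

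**Figure D1:**
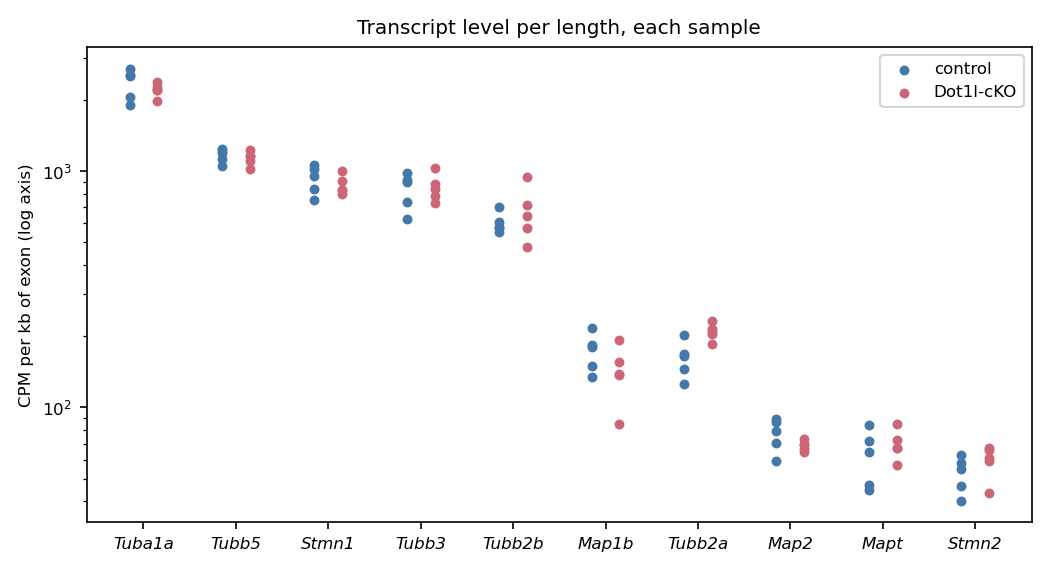
Level of each transcript per kilobase of exon in each sample, on a log axis in CPM per kb, with controls in blue and Dot1l-cKO in red. Transcripts are ordered by the control mean, from Tuba1a at 2344 to Stmn2 at 52.5 CPM per kb, and the gap between Tubb2b and Map1b is present in both groups.

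The comparison of Dot1l-cKO with control asked which of these transcripts differed at E14.5, when the dorsal telencephalon holds dividing progenitors and newly formed neurons. None of the 10 passed the threshold of adjusted p under 0.05 in the edgeR quasi-likelihood test, in which 1212 of 17039 genes were called (7.11%), 966 higher in Dot1l-cKO (5.67%) and 246 lower (1.44%). DESeq2 also called 0 of the 10, against 10.4% of the 19302 genes it tested, and 1 of the 10 had an unadjusted edgeR p under 0.05, against 20.6% of all genes. The estimates were positive for 5 and negative for 5, and the values of the groups overlapped for all 10, where 8.34% of all genes had no overlap. The median absolute log2 fold change was 0.16 for the 10 transcripts and 0.16 for all genes tested, but 0.10 for the 613 genes with a mean of at least 8 on the log2 CPM scale. The 95% intervals of 6 transcripts lay within ±0.5 on the log2 scale and those of all 10 within ±1. In whole tissue, fewer cells of a type and less RNA per cell cannot be told apart.

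**Figure D2:**
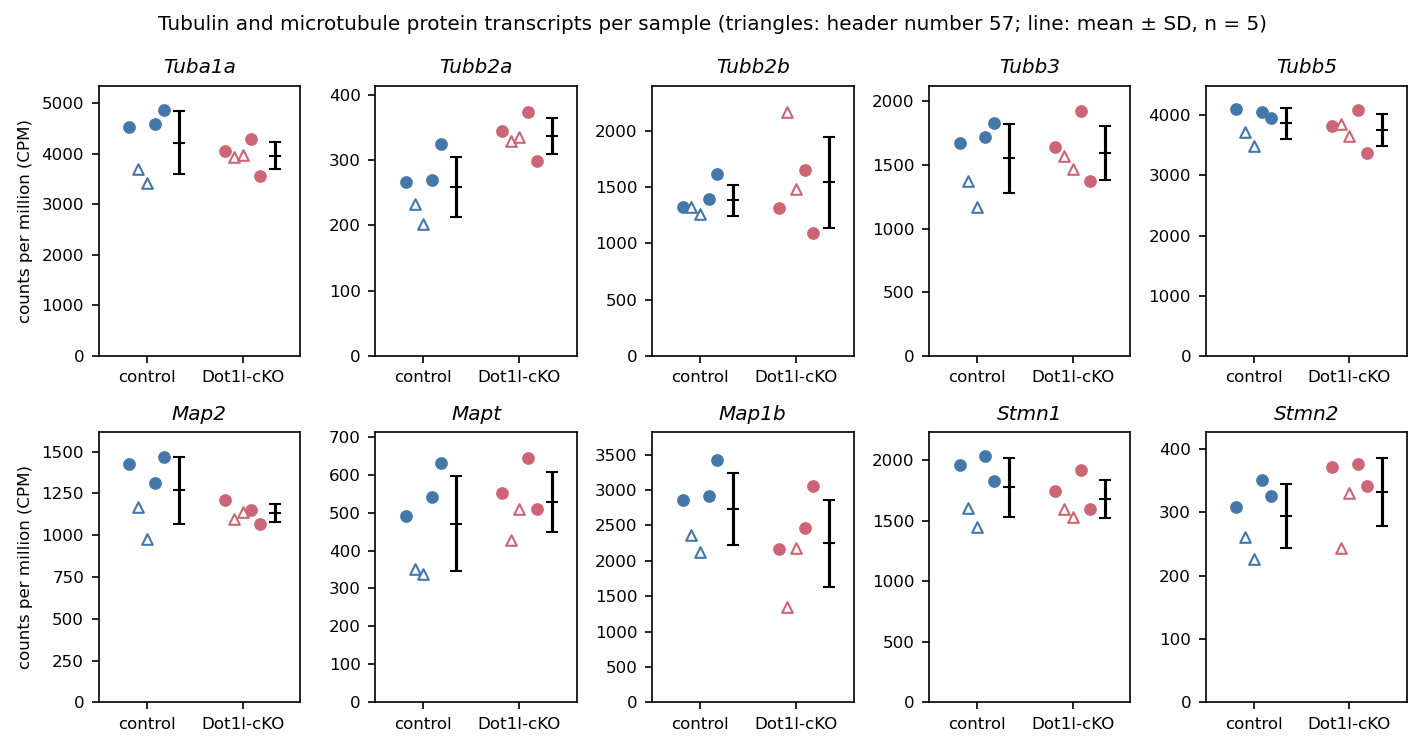
CPM of the 10 transcripts in each sample, with an axis from 0 in every panel; triangles mark the samples with header number 57 and the black line gives the mean ± SD of 5 samples. The groups overlap in every panel, the controls with header number 57 lie below the other controls throughout, and Dot1l-cKO replicate 2 is highest for Tubb2b (2166 CPM) and lowest for Map1b (1349 CPM).

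Tuba1a, the main α-tubulin of newborn neurons (chr15:98949837-98953703, minus strand), had 4544, 3702, 3421, 4587 and 4878 CPM in control replicates 1 to 5 and 4061, 3946, 3977, 4300 and 3565 CPM in Dot1l-cKO replicates 1 to 5. The Dot1l-cKO values lay within the control range, with controls 2 and 3 low and controls 1, 4 and 5 high. The means were 4227 ± 628 and 3970 ± 266 CPM (SD, n = 5 each), a log2 difference of −0.09 (SE 0.10, 95% interval −0.32 to 0.14, edgeR adjusted p = 0.686). Of the sum of Tuba1a, Tuba1b, Tuba1c, Tuba4a and Tuba8, per length, Tuba1a made up 90.4% ± 1.35 in the controls and 90.4% ± 0.981 in Dot1l-cKO (SD, n = 5 each). This share depends on how reads common to Tuba1a, Tuba1b and Tuba1c were treated.

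Tubb2a, a neuronal β-tubulin (chr13:34074274-34078007, minus strand), had 266, 233, 202, 270 and 325 CPM in the controls and 345, 329, 336, 374 and 298 CPM in Dot1l-cKO. Control replicate 5 and Dot1l-cKO replicate 5 produced the overlap, and Dot1l-cKO exceeded the control of the same number in the other 4 pairs. The Dot1l-cKO mean of 336 ± 27.4 CPM was 29.9% above the control mean of 259 ± 45.9 CPM, both SD over 5 samples (95% interval 8.70% to 55.3%). The log2 difference of 0.38 (SE 0.12) had an unadjusted edgeR p of 0.00788 and did not pass the threshold after adjustment. The adjusted p was 0.0817 in edgeR, 0.0742 in edgeR with the replicate number as a block and 0.0719 in DESeq2. It passed in 1 of 10 fits that each left out a sample, the fit without control replicate 5, with a log2 difference of 0.47 and an edgeR adjusted p of 0.0212, where 7.88% of all genes were called. Without the 4 samples of header number 57 the log2 difference was 0.24 (edgeR adjusted p = 0.310).

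Tubb2b, the β-tubulin with nearly the same coding sequence (chr13:34126748-34130466, minus strand), had 1323, 1318, 1259, 1390 and 1616 CPM in the controls and 1317, 2166, 1482, 1652 and 1090 CPM in Dot1l-cKO. The lowest and the highest value were both in Dot1l-cKO, and its SD of 406 CPM compared with 139 CPM in the controls (n = 5 each). The log2 difference was 0.16 (SE 0.16, 95% interval −0.19 to 0.51, edgeR adjusted p = 0.630). Without Dot1l-cKO replicate 2 alone it was 0.0037 (adjusted p = 0.990), and the 10 fits that each left out a sample ranged up to 0.25. Without the 4 samples of header number 57 it turned to −0.10 (adjusted p = 0.757).

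Tubb3, the β-tubulin used as a label of neurons (chr8:123411424-123422015, plus strand), had 1668, 1376, 1173, 1716 and 1831 CPM in the controls and 1637, 1567, 1468, 1925 and 1370 CPM in Dot1l-cKO. The groups overlapped over most of their range, with means of 1553 ± 271 and 1594 ± 211 CPM (SD, n = 5 each). The log2 difference was 0.04 (SE 0.13, 95% interval −0.25 to 0.33, edgeR adjusted p = 0.907), and its sign was not stable to the samples included. It was negative without control replicate 2, control replicate 3 or Dot1l-cKO replicate 4, with a range of −0.049 to 0.10 over the 10 fits, and −0.087 without header number 57.

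Tubb5, the β-tubulin that dividing progenitors also use (chr17:35833921-35838306, minus strand), had 4097, 3716, 3490, 4044 and 3958 CPM in the controls and 3826, 3855, 3647, 4083 and 3375 CPM in Dot1l-cKO. The groups overlapped, and its spread was the smallest of the 10 in the controls, with a coefficient of variation of 6.57%. The means were 3861 ± 254 and 3757 ± 264 CPM (SD, n = 5 each), a log2 difference of −0.04 (SE 0.07, 95% interval −0.20 to 0.12, edgeR adjusted p = 0.818).

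The share of each β-tubulin in the sum of 8 β-tubulin genes, per length, removes what is common to a whole sample. Tubb5 held 40.1% ± 1.91 in the controls and 37.5% ± 1.84 in Dot1l-cKO (SD, n = 5 each) and was lower in Dot1l-cKO in 4 of 5 pairs of the same replicate number. Tubb2a held 5.51% ± 0.465 in the controls (range 5.01% to 6.27%) and 6.94% ± 0.453 in Dot1l-cKO (range 6.18% to 7.24%), higher in 5 of 5 pairs with overlapping groups. These shares are descriptions without a test, and the Tubb2a share depends on reads that Tubb2a and Tubb2b have in common. Tubb3 held 28.5% ± 2.28 and 28.2% ± 1.95, and Tubb2b 20.8% ± 1.29 and 22.0% ± 3.98, where Dot1l-cKO replicate 2 reached 28.6%. Tubb4b held 4.31% ± 0.665 and 4.46% ± 0.164, and each of the remaining β-tubulins had a mean under 1% in both groups.

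**Figure D3:**
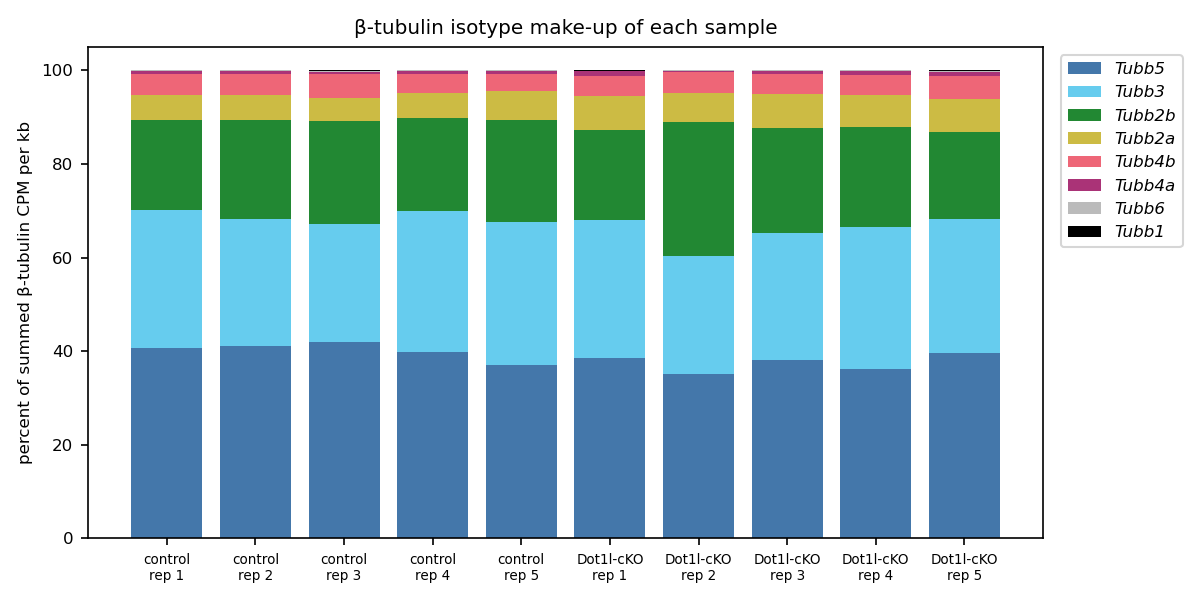
Percent of the summed β-tubulin CPM per kb held by each of 8 genes in each of the 10 samples, stacked from Tubb5 at the bottom. The yellow Tubb2a segment is between 5.01% and 6.27% in the controls and between 6.18% and 7.24% in Dot1l-cKO, and Dot1l-cKO replicate 2 has the tallest Tubb2b segment (28.6%).

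Of the structural microtubule-associated proteins, Map2, which marks the cell body and dendrites (chr1:66175273-66442583, plus strand), had 1426, 1167, 979, 1312 and 1467 CPM in the controls and 1208, 1097, 1142, 1151 and 1068 CPM in Dot1l-cKO. All Dot1l-cKO values lay inside the control range and were closer together, with a coefficient of variation of 4.77%. The control mean was 1270 ± 200 CPM (SD, n = 5) and the Dot1l-cKO mean 1133 CPM (n = 5), with Dot1l-cKO lower in 4 of 5 pairs. The log2 difference of −0.17 (SE 0.11, 95% interval −0.40 to 0.07) had an edgeR adjusted p of 0.428.

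Mapt, which encodes the axonal protein tau (chr11:104231390-104332090, plus strand), had 490, 352, 338, 541 and 631 CPM in the controls and 550, 428, 509, 643 and 509 CPM in Dot1l-cKO. Controls 2 and 3 were low, and Dot1l-cKO was higher in 4 of 5 pairs. The means were 470 ± 125 and 528 ± 78.0 CPM (SD, n = 5 each), a log2 difference of 0.17 (SE 0.17, 95% interval −0.22 to 0.55, edgeR adjusted p = 0.649). It was 0.067 without control replicate 3 and 0.29 without control replicate 5, the extremes of the 10 fits that each left out a sample.

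Map1b, a microtubule-associated protein of growing axons (chr13:99421446-99516540, minus strand), had 2859, 2366, 2122, 2915 and 3426 CPM in the controls and 2173, 1349, 2186, 2470 and 3058 CPM in Dot1l-cKO. Dot1l-cKO replicate 2 was the lowest sample, the other Dot1l-cKO values lay inside the control range, and Dot1l-cKO was lower in 4 of 5 pairs. The means were 2738 ± 509 and 2247 ± 617 CPM (SD, n = 5 each). The log2 difference of −0.28 (SE 0.20, edgeR adjusted p = 0.464) had the widest span of the 10, with a 95% interval of −0.71 to 0.14. It was −0.15 without Dot1l-cKO replicate 2 and −0.43 without Dot1l-cKO replicate 5, the extremes when a sample was left out.

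Stmn1, the stathmin that progenitors and neurons share (chr4:134468320-134473843, plus strand), had 1961, 1604, 1445, 2033 and 1824 CPM in the controls and 1744, 1593, 1531, 1921 and 1600 CPM in Dot1l-cKO. The Dot1l-cKO samples lay within the control range. The means were 1774 ± 246 and 1678 ± 157 CPM (SD, n = 5 each), a log2 difference of −0.08 (SE 0.10, 95% interval −0.31 to 0.15, edgeR adjusted p = 0.727).

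Stmn2, the stathmin of neuronal growth cones (chr3:8509360-8561606, plus strand), had 307, 261, 225, 351 and 325 CPM in the controls and 371, 243, 331, 376 and 341 CPM in Dot1l-cKO. Dot1l-cKO was higher in 4 of 5 pairs, with replicate 2 as the exception and the lowest sample of its group. The means were 294 ± 50.5 and 332 ± 53.6 CPM (SD, n = 5 each), a log2 difference of 0.18 (SE 0.14, 95% interval −0.14 to 0.49, edgeR adjusted p = 0.540). It was 0.095 without control replicate 3 and 0.27 without Dot1l-cKO replicate 2, again the extremes when a sample was left out.

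A ratio of a neuronal to a more broadly used transcript within each sample was compared for a pair of combinations, with p-values adjusted over both. The log2 ratio of Tubb3 to Tubb5 was −1.33 ± 0.178 in the controls and −1.24 ± 0.0959 in Dot1l-cKO (SD, n = 5 each), a difference of 0.09 (two-sided exact permutation test, p = 0.365, adjusted p = 0.365). The log2 ratio of Stmn2 to Stmn1 was −2.60 ± 0.0853 in the controls and −2.35 ± 0.212 in Dot1l-cKO, a difference of 0.25 (two-sided exact permutation test, p = 0.0556, adjusted p = 0.111). It was higher in Dot1l-cKO in 4 of 5 pairs, with a difference of 0.19 among the samples with header number 57 and of 0.29 among the remaining 6. Flipping signs within pairs gave an exact p of 0.125 for the Stmn2 to Stmn1 ratio, where 5 pairs cannot go below 0.0625. Without Dot1l-cKO replicate 2, in which the ratio was −2.71 and the lowest of its group, the difference was 0.34. The adjusted exact permutation p was then 0.0159, under 0.05 in only this 1 of 10 fits that each left out a sample. In the remaining fits the adjusted exact permutation p was 0.111 to 0.238.

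The header number moved with the levels of the 10 transcripts in the controls. Both controls with header number 57 were below the other 3 controls for all 10 transcripts, a pattern seen for 20.1% of all genes tested, and control replicate 3 was the lowest control for all 10. In Dot1l-cKO the same pattern held for Stmn1 and Stmn2, 2 of the 10. The share of all genes with this pattern in Dot1l-cKO is not given, so the counts of the groups cannot be set against each other. The summed CPM of 17 other pan-neuronal markers was at most 2346 in the controls with header number 57 and at least 2735 in the other controls. The part of these values in the results was not tested.

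The set with header number 57 holds only replicates 2 and 3 of each group, and its controls were low for all 10 transcripts. The share of all genes that were higher in Dot1l-cKO within either set is not given. Within header number 57 the mean log2 CPM was higher in Dot1l-cKO for 9 of 10 transcripts, by 0.62 for Tubb2a, 0.48 for Tubb2b and 0.44 for Mapt, with Map1b as the exception (−0.38). In the other 6 samples it was higher for 3 of 10, Tubb2a (0.24), Stmn2 (0.15) and Mapt (0.03). The sign was the same in both sets for these 3 and for Map1b, which was −0.27 in the other samples. The difference between the sets, tested as an interaction in edgeR, was called for 0 of the 10 and for 0 of 17039 genes (0%). At an unadjusted p under 0.05 it held for Tuba1a (0.0168) and Map2 (0.0337), 2 of the 10, against 6.29% of all genes, with an edgeR adjusted p of 0.728 for both.

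**Figure D4:**
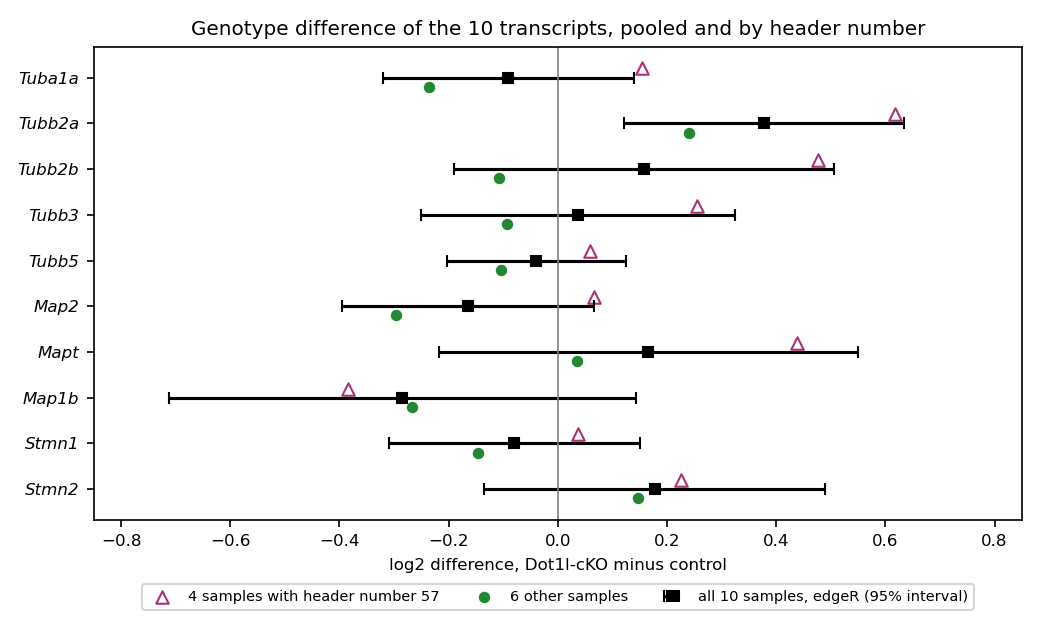
Log2 difference of Dot1l-cKO minus control for each transcript, with the edgeR estimate and its 95% interval over all 10 samples (squares) and the difference of mean log2 CPM in the 4 samples with header number 57 (triangles) and in the 6 others (circles). Every interval but that of Tubb2a crosses 0, and for 9 of the 10 transcripts the triangle lies to the right of the circle.

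The wider microtubule machinery was read from 90 further genes in 11 roles, of which 89 were tested and Tuba8 was not. The test called 3 of them, 3.37% against 7.11% of all genes, and the block by replicate number called 7, against 9.41%. Dync1i1, an intermediate chain of the dynein motor (chr6:5725639-6028039, plus strand), rose by 0.71 on the log2 scale from a control level of 40.3 ± 9.38 CPM (SD, n = 5; SE of the difference 0.15, edgeR adjusted p = 0.0173). Ttll4, a glutamylase that modifies the tubulin carboxyl terminus and other proteins (chr1:74661745-74703730, plus strand), fell from 128 ± 8.53 to 94.9 ± 8.42 CPM in 5 samples each (log2 difference −0.43, SE 0.08, edgeR adjusted p = 0.00746). Tuba4a, a minor α-tubulin in this tissue (chr1:75214228-75219865, minus strand), fell from 19.0 ± 1.10 to 13.6 ± 1.57 CPM (log2 difference −0.49, SE 0.09, edgeR adjusted p = 0.00837).

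The groups did not overlap for these 3 genes. Dync1i1 ranged from 29.0 to 52.3 CPM in the controls and from 57.9 to 79.8 CPM in Dot1l-cKO. Ttll4 ranged from 116 to 136 CPM in the controls and from 81.9 to 104 CPM in Dot1l-cKO, and Tuba4a from 17.6 to 20.6 and from 11.8 to 16.1 CPM. Without the 4 samples of header number 57, Dync1i1 kept its call, while the edgeR adjusted p was 0.0739 for Ttll4 (log2 difference −0.36) and 0.0941 for Tuba4a (log2 difference −0.42). Tuba4a made up 0.202% ± 0.031 of the same α-tubulin sum per length in the controls and 0.150% ± 0.0124 in Dot1l-cKO (SD, n = 5 each). That sum depends on how reads common to Tuba1a, Tuba1b and Tuba1c were treated.

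Of the 89 genes, 47 had a positive and 42 a negative estimate, 77 lay within ±0.25 on the log2 scale and 14 had an unadjusted p under 0.05, where 20.6% of all genes did. Their median absolute log2 fold change was 0.09. No gene of the γ-tubulin complex, the structural microtubule-associated proteins, the other β-tubulins and stathmins, the plus-end and severing proteins, the folding cofactors or the kinases was called by edgeR, where 7 of them had an unadjusted p under 0.05. Of these genes DESeq2 called Tube1 and Tubgcp4, and edgeR with the replicate block called Tubgcp4, Map7 and Fignl1. The block also called the kinesin Kif21a. Dcx, the doublecortin of migrating neurons, had control and Dot1l-cKO levels of 728 ± 128 and 616 ± 124 CPM (SD, n = 5 each, log2 difference −0.24, edgeR adjusted p = 0.441). The log2 difference was −0.03 for the α-tubulin Tuba1b (adjusted p = 0.897), 0.12 for the β-tubulin Tubb4b (adjusted p = 0.437) and 0.13 for the stathmin Stmn3 (adjusted p = 0.644), all by edgeR.

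**Figure D5:**
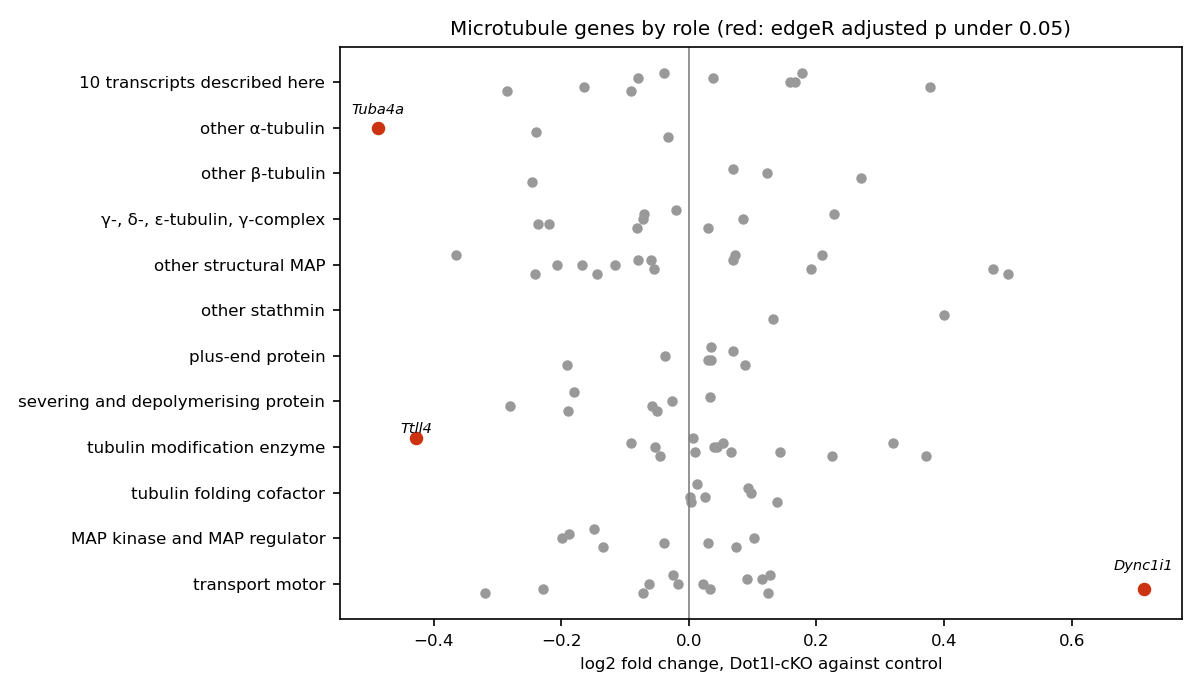
Log2 fold change of Dot1l-cKO against control for the 10 transcripts and the 89 other microtubule genes tested, 1 point per gene, by role on the vertical axis; red points passed the edgeR threshold. The red points are Tuba4a (−0.49), Ttll4 (−0.43) and Dync1i1 (0.71), and most of the others lie within ±0.25.

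Other transcripts of the cells in the tissue are given for comparison with these levels. The counts in this and the next paragraph stand beside the shares of all genes tested. EdgeR called 7.11% of them (5.67% higher, 1.44% lower) and DESeq2 10.4%, and 20.6% had an unadjusted edgeR p under 0.05. Of 17 pan-neuronal markers outside the microtubule genes, led in level by Ncam1, Elavl3 and Rtn1, Gap43 (log2 difference 0.46) and Thy1 (0.85) rose and Myt1l (−0.40) fell. Over the 10 fits that each left out a sample Myt1l lost its call in 9 (edgeR adjusted p up to 0.0882), and without header number 57 the adjusted p was 0.117 for Gap43 and 0.0514 for Myt1l. The summed level of the 17 was 2100 to 3062 CPM in the controls and 2105 to 3004 CPM in Dot1l-cKO. None of 8 projection neuron markers, led by Neurod6, Neurod2 and Bcl11b, was called by edgeR, while 3 had an unadjusted p under 0.05 and DESeq2 called 2 of the 8 (1436 to 1743 CPM in the controls, 1504 to 1994 CPM in Dot1l-cKO). Of these markers 7 had a positive estimate, up to 0.55 on the log2 scale, and 1 a negative estimate of −1.07, with a median of 0.20. Of 12 progenitor markers, led by Vim, Top2a and Nes, 5 had a positive and 7 a negative estimate, with a median log2 difference of −0.18. Vim (0.53), Slc1a3 (0.43) and Fabp7 (0.62) rose and Pax6 (−0.36) fell, and the sums were 3725 to 4591 and 4381 to 4859 CPM. When samples were left out in turn, Pax6 lost its call in 7 of 10 fits (edgeR adjusted p up to 0.0801), and without header number 57 the adjusted p was 0.230 for Pax6 and 0.139 for Fabp7. Markers of progenitors and projection neurons, the cells of the labelled tissue, were thus present in every sample.

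Of 6 Cajal-Retzius markers, led by Reln, 3 were called higher (398 to 615 and 598 to 1166 CPM), and all 6 microglia markers, led by Csf1r, Cx3cr1 and C1qa, were called higher at low sums (31.6 to 54.2 and 63.9 to 97.5 CPM). Whichever sample was left out, 1 of these 3 and 3 of these 6 kept their call. All 11 ventral telencephalon and interneuron markers tested, led by Dlx1 and Gad2, had a negative estimate, with a median log2 difference of −1.71, and 8 had an unadjusted p under 0.05. Of these, Lhx6 was called lower (30.4 ± 12.4 CPM in the controls, 3.79 ± 2.20 CPM in Dot1l-cKO, SD, n = 5, edgeR adjusted p = 0.00187), and the sums were 63.2 to 344 and 18.4 to 114 CPM, and Nkx2-1 was too low to test. No marker of the choroid plexus (5 genes, 2.00 to 634 and 3.68 to 153 CPM), erythroid cells (7 genes, 225 to 1005 and 344 to 1005 CPM), endothelium (5 genes, 112 to 206 and 102 to 237 CPM) or meninges (6 genes, 24.7 to 852 and 30.4 to 782 CPM) was called by edgeR or DESeq2, and 0 had an unadjusted p under 0.05. No listed marker was at 0 in all samples. The part of these cell types in the levels of the 10 transcripts was not tested.

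The genes whose pattern over the 10 samples was most like that of a given transcript were found by the root mean square difference of mean-centred log2 CPM among 6313 genes. For Tubb3 they were Ctnna2 (0.0622), Lancl2 (0.0630) and Nsg1 (0.0638), where the median gene had 0.260. For Tubb5 they were Lrrc49 (0.0358), Cdkn2aipnl (0.0410) and Pogk (0.0433), against a median of 0.173. For Stmn2 they were Plppr2 (0.0703), Gdap1l1 (0.0909) and Tom1l2 (0.0963), against a median of 0.302. These distances are descriptions over samples that share library composition and genotype.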

How the data were processed

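Stranded total RNA libraries (TruSeq, ribosomal RNA depleted) were sequenced by the authors. Per the labels and the methods of the study, the authors trimmed reads with Trim Galore 0.2.8, aligned them with TopHat2 2.0.9 to mm10 (the GRCm38 build) and counted reads per Ensembl release 79 gene with HTSeq 0.6.0 to give the deposited raw counts. The deposited normalised values, stored as signal, are those counts divided by a size factor of DESeq2 1.6.1 and were used for the limma alternative. How reads with several matches were treated is not given in the sources used here.

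The raw counts were tested with edgeR 4.0.16 in R 4.3.3 (TMM scaling, filterByExpr, quasi-likelihood test, genotype as the only term, all 10 samples), and p-values were adjusted over all genes by the Benjamini-Hochberg method with a threshold of 0.05. CPM used TMM library sizes, and log2 CPM a prior count of 2. Alternatives were DESeq2 1.42.0, limma 3.58.1 on log2(normalised + 1), DESeq2 size factors in edgeR, no count filter or at least 10 counts in every sample, no mitochondrial genes, blocks by replicate or header number, each sample left out, and the length used per gene. Fits without header number 57 and the interaction were added after seeing the data. The code was tested on simulated counts. Python 3.11.15 with Biopython 1.88 compared coding sequences. Symbols and coordinates came from GENCODE M21 (0.268% of counts had no symbol).

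The members and gene lists were chosen with earlier results of these data known. The text names every member, every called microtubule gene (up to 3 per direction and role), Dcx, Tuba1b, Tubb4b and Stmn3, the leading genes of each marker list, Dot1l, and the 3 genes nearest to Tubb3, Tubb5 and Stmn2 in pattern. A further gene of this rule and the driver of Cre are not reported here. No samples of a group were repeats of a library (at least 33.4 chi-square per degree of freedom over 20 pairs). After each gene was centred within its group, samples with the same replicate number had correlations of 0.131 to 0.597 (mean 0.29). The mean of −0.07 for other numbers follows largely from that centring and is no separate comparison. The numbers were taken to pair the samples, and the pairing was not tested. The samples of each pair also had the same header number, and the part of the header number in these correlations was not tested.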

Additional observations from a re-analysis of the deposited data

How the results depend on the processing

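Under the 19 alternatives 7 of the 10 transcripts, Dync1i1, Dcx and Tubb4b kept their sign and their side of the threshold. The replicate block changed no call of the 10 transcripts, the 3 called microtubule genes, Dcx, Tuba1b, Tubb4b or Stmn3. The 19 did not include the samples with header number 57 alone. Within those samples the mean log2 CPM difference was positive for Tuba1a (0.15), Tubb5 (0.06), Map2 (0.07) and Stmn1 (0.04), opposite to the main estimates. Mapt, Map1b and Stmn2 kept their sign there. The log2 difference without header number 57 was −0.0997 for Tubb2b, −0.0872 for Tubb3, 0.0030 for Tuba1b and −0.0080 for Stmn3, and the calls of Ttll4 and Tuba4a were lost. Over the leave-one-out fits it ranged from −0.049 to 0.10 for Tubb3 and from −0.087 to 0.033 for Tuba1b, and Tubb2a gained a call. The same fits gave −0.158 to −0.034 for Tuba1a, −0.074 to −0.012 for Tubb5, −0.25 to −0.11 for Map2 and −0.146 to −0.027 for Stmn1. The range of levels per length was 27.2-fold with the longest transcript. The cause of these changes was not tested. Genes called numbered 2011 with DESeq2 (663 lower) and 745 without header number 57 (590 higher, 155 lower). The genes called lower were 495 with the replicate block and 597 with the header number block. The other microtubule genes called numbered 5 with DESeq2, 7 with the replicate block, 7 with the header number block and 1 without header number 57. Leaving out a sample gave 750 to 1357 genes called, 624 to 1076 higher and 126 to 343 lower, 0 to 1 of the 10 transcripts and 3 to 4 other microtubule genes. The log2 ratio difference ranged over these fits from 0.217 to 0.343 for Stmn2 to Stmn1 and from 0.0255 to 0.141 for Tubb3 to Tubb5.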
